A study of Danio rerio with 6 samples.

Results

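Hox genes were examined in whole zebrafish embryos at 19 hours post fertilization. The members were all probe sets whose symbol in the array annotation begins with hoxa, hoxb, hoxc or hoxd followed by a number, which gave 59 probe sets for 42 genes among 15502 probe sets without controls. Of the 6 arrays, 3 held embryos mutant for hand2 (the hanS6 allele) and 3 their wild-type siblings, from 3 crosses of heterozygous parents. Expression of the reporter Tg(myl7:egfp) was used to tell the genotypes apart. Each array held RNA of 10 to 25 pooled embryos, and the sources do not say whether heterozygous siblings were kept out of the sibling pools. Both genotypes carry the reporter and are of the same age. The question set by the design was how the loss of hand2, a basic helix-loop-helix gene of heart, pharyngeal arch and fin mesoderm, alters transcript levels. The hand2 signal was 349, 448 and 292 in siblings 1 to 3 and 52.8, 50.9 and 45.1 in mutants 1 to 3, as the labels have it (limma, adjusted p = 0.0051).

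Hox genes encode homeodomain transcription factors that lie in clusters. Within a cluster, genes at the 3' end belong to the low-numbered paralogue groups and are transcribed towards the head, and genes at the 5' end to the high-numbered groups and are transcribed towards the tail. The low groups pattern the hindbrain and the neural crest of the pharyngeal arches, the middle groups the trunk, and the high groups the posterior trunk, tail and fins. In vertebrates their regional limits are set in part by retinoic acid, Cdx factors and Polycomb proteins, and their products bind DNA together with Pbx and Meis cofactors.

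The probe sets covered all 7 zebrafish clusters. They named 6 genes of hoxaa, 5 of hoxab, 10 of hoxba, 3 of hoxbb, 9 of hoxca, 3 of hoxcb and 6 of hoxda. Of 49 protein-coding Hox genes in the RefSeq gene table of assembly GRCz12tu, 7 had no member here and were not analysed: hoxa13a, hoxb1b, hoxb13a, hoxc10a, hoxc12a, hoxc13b and hoxd12a. Of the 42 genes, 29 had 1 probe set, 9 had 2 and 4 had 3, and the brightest stood for the gene. Signals are hybridisation intensities on a linear scale, and a level on 1 probe set cannot be set against the level on another. An array was taken to be at background for a probe set at or below its brightest Tag control, a probe set with no target in the sample. Those controls reached 63.7 to 122 in siblings and 57.0 to 80.2 in mutants, highest in sibling 2. By that measure 30 Hox genes were above background on all 6 arrays, 10 on some, and hoxa1a and hoxc1a on none.

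No Hox transcript was distinguishable between mutants and siblings at the precision of these arrays. Of 53 Hox probe sets tested, 0 passed an adjusted p of 0.05 in limma, against 0.00860% of 11626 probe sets (hand2 alone), and the smallest adjusted p of a Hox probe set was 0.942. At an unadjusted p under 0.05 the Hox count was 0 in either direction, against 3.03% of all tested probe sets. With the replicate number as a block, 0 passed after adjustment (0.00860% overall), and at an unadjusted p under 0.05 there were 0 higher (4.82% overall) and 1 lower (2.60% overall), hoxc13a. The smallest unadjusted p without the block was 0.060, on a probe set of hoxb8a.

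Differences, given throughout as mutant minus sibling on the log2(signal + 16) scale, ran from -0.50 for hoxc13a to 0.43 for hoxd9a. The 16 added before the logarithm understates differences of dim genes. There were 17 genes with a higher and 25 with a lower mutant mean, and the median was -0.07. Over 7355 tested genes, each by its brightest probe set, 3693 were higher and 3662 lower, with a median of 0.001. Over all tested probe sets the median was 0.02. Here and below, mutant means are called higher or lower on the log2 scale. The hoxb4a gene counts as lower although its mean signal was 84.6 in siblings and 86.3 in mutants. The median size of a difference was 0.16 for Hox genes and 0.15 for all tested probe sets, with median standard errors of 0.21 and 0.20. Of the 40 genes tested, 14 (35.0%) differed by over 1 standard error, against 35.7% of all probe sets, and 3 (7.5%) by over 2, against 5.4%. The 95% interval of the difference lay within -1 to 1, a doubling or halving of signal + 16, for 39 of these 40 genes. The exception was hoxc13a, whose interval ran from -1.03 to 0.03. A doubling or halving of the signal itself is a smaller step on this scale, most so for dim genes. Intervals within -1 to 1 may therefore hold it, and they reached 0.92 for hoxd9a and -0.86 for hoxc11b. Smaller differences in a part of the embryo were not detectable in whole embryos. In pooled tissue, fewer cells of a type and less transcript per cell cannot be told apart.

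**Figure D1:**
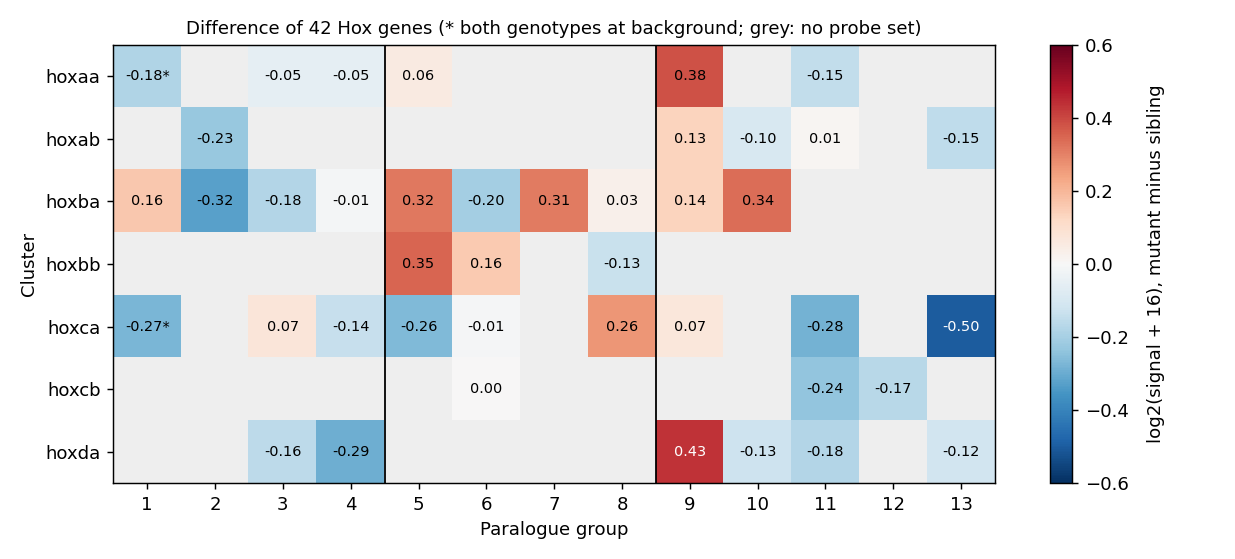
Difference of each of the 42 Hox genes, mutant minus sibling on the log2(signal + 16) scale, by cluster (rows) and paralogue group (columns); hoxa5a is drawn at its fitted value although its sibling arrays are at background. Vertical lines part groups 1 to 4, 5 to 8 and 9 to 13, and values run from -0.50 for hoxc13a to 0.43 for hoxd9a.

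Among the hindbrain and arch genes of groups 1 to 4, 11 of 13 had a lower mutant mean, with a median of -0.16, and 2 had a higher one, hoxb1a and hoxc3a. Of the lower ones, hoxa1a and hoxc1a were at background on all 6 arrays, and leaving such genes out gave a median of -0.14. Omitting mutant replicate 2 brought the median of all 13 to -0.07, mutant replicate 3 to -0.11 and mutant replicate 1 to -0.24. The mean signals over 6 arrays ran from 43.4 for hoxa1a to 1234 for hoxb3a. Both members of group 2, which specify the skeleton of the hyoid arch in zebrafish, were on the lower side. The hoxb2a signal was 582, 648 and 595 in siblings 1 to 3 and 557, 422 and 476 in mutants 1 to 3. All 3 mutant arrays lay below all 3 siblings, with means of 607.9 ± 35.0 and 485.0 ± 68.2 (SD, n = 3 each). The difference was -0.32 ± 0.16 (SE; limma, adjusted p = 0.942). A dimmer hoxb2a probe set differed by -0.25 ± 0.25 (SE). The hoxa2b signal was 509, 600 and 671 in siblings and 608, 490 and 423 in mutants. These arrays overlapped, and mutant 1 was above sibling 1, with a difference of -0.23. Omitting mutant replicate 1 gave -0.36, omitting wild-type replicate 3 gave -0.14, and omitting mutant replicate 3 gave -0.11.

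Of group 4, whose members mark the caudal hindbrain, hoxd4a was measured by 2 probe sets. Its brighter probe set read 344, 413 and 385 in siblings and 336, 265 and 326 in mutants, without overlap, but mutant 1 was only just below sibling 1. The difference was -0.29 ± 0.17 (SE), and -0.19 without mutant replicate 2 (limma, adjusted p = 0.942 with all arrays). Its dimmer probe set read 172, 171 and 136 in siblings and 144, 92.2 and 112 in mutants, a difference of -0.42 ± 0.21 (SE), and the mutant was lower at all 3 replicate numbers on both. The other members of group 4, hoxa4a, hoxb4a and hoxc4a, differed by -0.05, -0.01 and -0.14. All 3 took a positive sign when mutant replicate 2 was left out, hoxa4a and hoxb4a also without wild-type replicate 2, and hoxb4a also without mutant replicate 3.

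In group 3, hoxb3a, a gene of the caudal rhombomeres, read 1219, 1485 and 1203 in siblings and 1468, 1051 and 975 in mutants. Mutant 1 was above sibling 1 and the other mutants below theirs, so the genotypes overlapped at a difference of -0.18 ± 0.18 (SE). Omitting mutant replicate 1 gave -0.35, and omitting mutant replicate 3 gave -0.06. The other members hoxa3a, hoxd3a and hoxc3a differed by -0.05, -0.16 and 0.07, each by less than 1 standard error. The signs of hoxa3a, hoxd3a and hoxc3a turned with 1 sibling array left out (wild-type replicate 2, 3 and 1 in that order), and hoxa3a also without mutant replicate 3. In group 1, hoxb1a, which gives the facial motor neurons of the hindbrain their identity, read 182, 213 and 119 in siblings and 197, 199 and 171 in mutants. Its difference of 0.16 ± 0.23 (SE) became -0.06 without wild-type replicate 3. The other members of group 1, hoxa1a and hoxc1a, were at 46.5 to 47.1 and 34.0 to 62.1 in siblings and at 31.6 to 48.9 and 30.2 to 55.6 in mutants, all at background.

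In groups 5 to 8, 8 of 12 genes had a higher mutant mean and 4 a lower one, and the median was 0.04. With a common median on all arrays, a rescaling that lowered all tested probe sets too, it was -0.03. It was 0.07 with wild-type replicate 1 or 2 omitted, 0.13 with wild-type replicate 3, 0.16 with mutant replicate 2 and 0.11 with mutant replicate 3. Mean signals ran from 60.1 for hoxa5a to 1854 for hoxc8a. Group 5 held the largest differences here. The signal of hoxb5b, a gene of the zebrafish forelimb field that limits the number of atrial heart cells, was 94.1, 125 and 101 in siblings and 175, 120 and 128 in mutants. Mutant 1 was the highest array and the genotypes overlapped, at a difference of 0.35 ± 0.21 (SE), which was 0.20 without mutant replicate 1. Its duplicate hoxb5a read 284, 274 and 200 in siblings and 388, 316 and 253 in mutants, higher in the mutant at all 3 numbers. That difference was 0.32 ± 0.22 (SE), and 0.17 without either wild-type replicate 3 or mutant replicate 1 (limma, adjusted p = 0.942 for both genes with all arrays). Of the same group, hoxc5a differed by -0.26 and hoxa5a, at background on all sibling arrays, has no exact size; its fitted value enters the medians only.

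The only group 7 gene, hoxb7a, read 137, 99.8 and 109 in siblings and 156, 148 and 135 in mutants. Sibling 2 was at background, mutant 3 was just below sibling 1, and the difference was 0.31 ± 0.19 (SE). A dimmer hoxb7a probe set differed by -0.09 ± 0.21 (SE). In group 6, hoxb6b and hoxb6a differed by 0.16 and -0.20, and hoxc6a and hoxc6b by -0.01 and 0.0027. The hoxc6a arrays spread widely within each genotype, 235, 176 and 320 in siblings and 301, 173 and 248 in mutants, and its difference was 0.20 without either wild-type replicate 3 or mutant replicate 2. In group 8, hoxc8a, a trunk gene, read 1789, 1350 and 1937 in siblings and 1796, 2136 and 2119 in mutants. Sibling 2 was the lowest array, and the difference of 0.26 ± 0.16 (SE) was 0.11 without it. The other members of group 8, hoxb8a and hoxb8b, differed by 0.03 and -0.13 on their brightest probe sets.

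**Figure D2:**
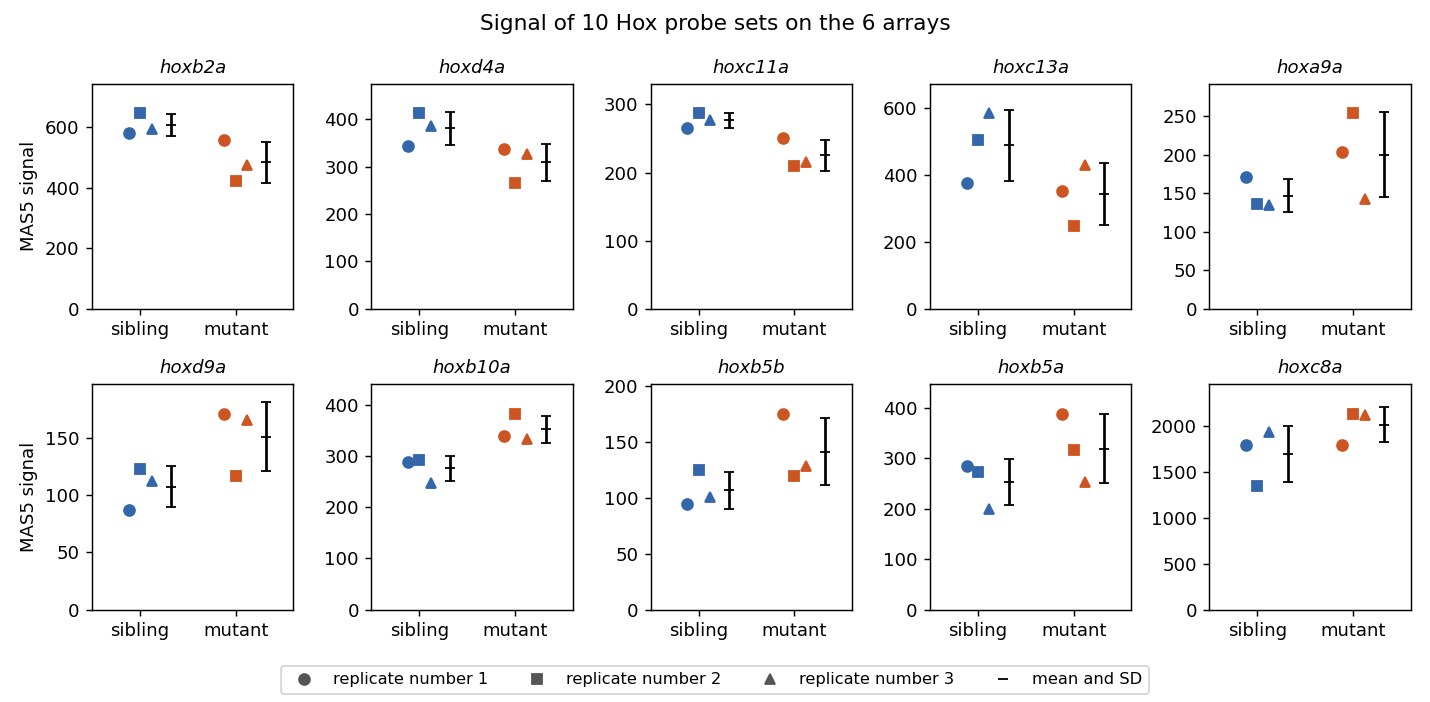
Signal of 10 Hox probe sets, 1 point per array, with the mean and SD of each genotype (n = 3) beside the points; marker shapes give the replicate number, and each vertical axis starts at 0. The genotypes do not overlap for hoxb2a, hoxd4a, hoxc11a and hoxb10a and overlap for the other 6 probe sets.

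In the posterior groups 9 to 13, 7 of 17 genes had a higher and 10 a lower mutant mean, with a median of -0.12. Omitting wild-type replicate 2 or mutant replicate 2 brought that median to -0.02, and omitting mutant replicate 3 to -0.21. All 5 members of group 9 had a higher mutant mean. The hoxd9a signal was 87.2, 123 and 112 in siblings and 171, 116 and 166 in mutants. Mutants 1 and 3 were above every sibling and mutant 2 was not, and the difference was 0.43 ± 0.22 (SE; limma, adjusted p = 0.942). The hoxa9a signal was 171, 136 and 134 in siblings and 204, 254 and 143 in mutants, a difference of 0.38 ± 0.23 (SE). Omitting mutant replicate 2 gave 0.20 and omitting mutant replicate 3 gave 0.59. A dimmer hoxa9a probe set differed by -0.08. The other members hoxb9a, hoxa9b and hoxc9a differed by 0.14, 0.13 and 0.07, each by less than 1 standard error. The hoxb9a signal was 926, 763 and 758 in siblings and 790, 1031 and 877 in mutants, with overlap. The sign of hoxc9a turned without mutant replicate 1 and under both rescalings, and that of hoxa9b without wild-type replicate 1.

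In group 10, hoxb10a read 289, 293 and 247 in siblings and 340, 383 and 335 in mutants. Every mutant array was above every sibling array, with means of 276.3 ± 25.3 and 352.7 ± 26.8 (SD), and the difference was 0.34 ± 0.17 (SE; limma, adjusted p = 0.942). Another hoxb10a probe set read 137, 182 and 222 in siblings and 312, 155 and 196 in mutants, where the genotypes overlapped. The remaining members of group 10, hoxd10a and hoxa10b, differed by -0.13 and -0.10. The hoxd10a signal was 423, 569 and 519 in siblings and 434, 393 and 559 in mutants, so that 1 mutant array stood below the others.

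Of groups 11 to 13, 8 of 9 genes had a lower mutant mean, and hoxa11b, whose sign turned under both rescalings, differed by 0.01. This varied with the replicate number. In groups 11, 12 and 13, 2, 1 and 0 genes were higher in the mutant at number 1, and 0 in each at number 2. At number 3 there were 2, 1 and 2. The hoxa11a gene was above background on 1 array of each genotype, hoxc11b on 2 of each, and hoxa13b on 2 sibling arrays and 1 mutant array. The hoxc11a signal was 265, 287 and 278 in siblings and 251, 210 and 215 in mutants. No mutant array reached a sibling array, at a difference of -0.28 ± 0.17 (SE; limma, adjusted p = 0.942), while a dimmer hoxc11a probe set differed by -0.07 ± 0.19 (SE). The hoxd11a signal was 283, 236 and 290 in siblings and 280, 188 and 249 in mutants, with overlap. Of the other members of group 11, hoxc11b differed by -0.24 and hoxa11a by -0.15, and the sign of hoxa11a turned without wild-type replicate 2. The only group 12 gene, hoxc12b, read 149, 174 and 179 in siblings and 152, 103 and 200 in mutants, and its difference of -0.17 became 0.06 without mutant replicate 2.

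Group 13 genes act at the tail end of the axis. The hoxc13a signal was 376, 505 and 586 in siblings and 353, 247 and 432 in mutants, lower in the mutant at every replicate number. Mutant 3 was above sibling 1, so the genotypes overlapped. The difference was -0.50 ± 0.24 (SE) and -0.29 without mutant replicate 2, and the unadjusted p of 0.063 became 0.030 with the block (limma, adjusted p = 0.942 and 0.655). Of the other members, hoxa13b and hoxd13a differed by -0.15 and -0.12, each by less than 1 standard error.

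By cluster, medians ran from -0.17 for hoxcb to 0.16 for hoxbb, with 0.08 for hoxba, -0.05 for hoxaa, -0.10 for hoxab and -0.14 for both hoxca and hoxda. Each cluster held genes on both sides of 0. On hoxda, hoxd9a differed by 0.43 and the members on either side of it, hoxd4a and hoxd10a, by -0.29 and -0.13. Single arrays moved each of these medians. With mutant replicate 2 omitted it was 0.03 for hoxca, 0.01 for hoxcb and -0.03 for hoxda, and with mutant replicate 3 omitted -0.24, -0.37 and -0.22 in that order. For hoxbb it was 0.03 with mutant replicate 1 omitted and 0.28 with mutant replicate 3 omitted. The extremes came from wild-type replicates 1 and 2 for hoxaa, at -0.19 and 0.12, and for hoxab, at -0.16 and -0.05. For hoxba the lowest with a single array omitted was 0.02, without wild-type replicate 3, and with a common median it was -0.002. With the median over a gene's probe sets in place of the brightest, hoxab was at 0.01 and hoxaa at 0.00047.

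The direction varied with the replicate number. At number 1, 30 of 42 Hox genes were higher in the mutant (median 0.10), at number 2 only 10 (median -0.30), and at number 3 there were 19 (median -0.04). The medians over all tested probe sets were 0.0042, 0.0091 and 0.02 at the same numbers, and 5881, 5926 and 6233 of 11626 were higher. The labels tie no number to a cross. Deviations of sibling 2 and mutant 2 correlated at 0.118, below the 0.203 of sibling 1 and mutant 2. A difference by number may therefore set unrelated arrays against each other. In groups 1 to 4, 10 of 13 genes were higher in the mutant at number 1 (median 0.14), 0 at number 2 (median -0.44) and 3 at number 3 (median -0.13). These 13 include hoxa1a and hoxc1a, both at background. In groups 5 to 8 the medians were 0.21, 0.05 and -0.06, and in groups 9 to 13 they were 0.02, -0.30 and 0.09. Within a genotype, group 1 to 4 genes were highest in sibling 2, at a median of 0.25 above their 6-array mean, and lowest in mutant 2, at -0.25. The group 9 to 13 genes stood at 0.13 and -0.20 on the same arrays, the group 5 to 8 genes at 0.0012 and -0.02, and all tested probe sets at 0.01 and 0.03.

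**Figure D3:**
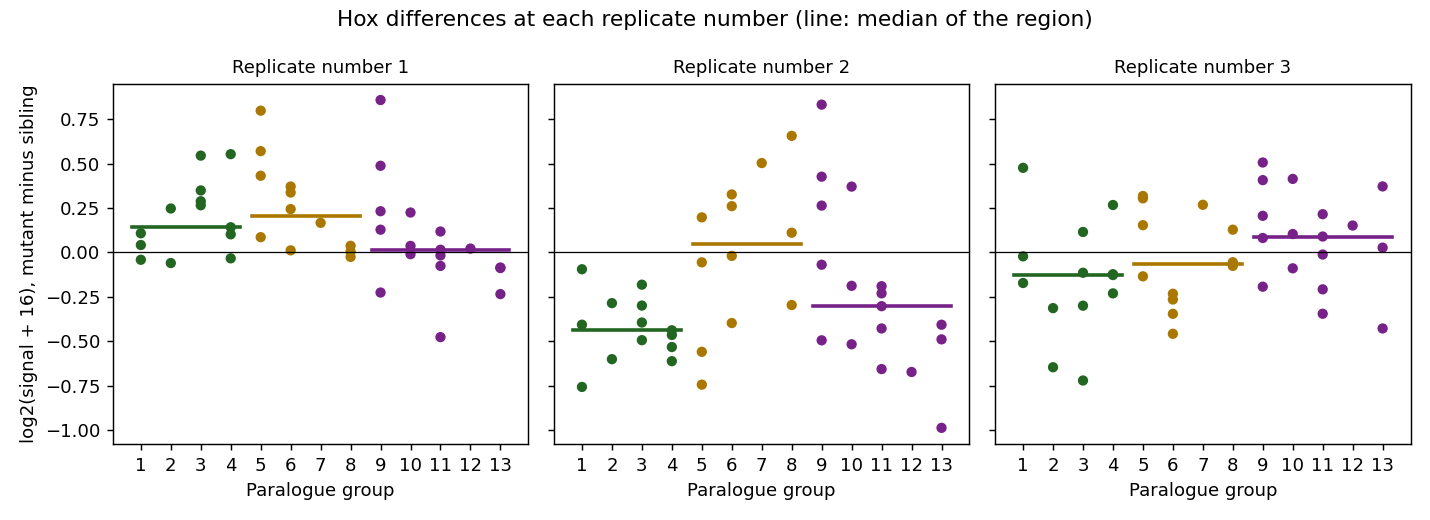
Difference of each Hox gene (point) between the mutant and the sibling array of the same replicate number, by paralogue group; horizontal lines are the medians of groups 1 to 4, 5 to 8 and 9 to 13. At number 2 all 13 genes of groups 1 to 4 lie below 0, and at number 1 10 of these 13 lie above it.

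The 99th percentile of signal was 9493 on mutant 2 and 12859 on sibling 2, with the other arrays between them. After quantile normalization, which gives all arrays the same distribution, the number 2 median of groups 1 to 4 was -0.50 and 0 of 13 genes were higher. Over all Hox genes, omitting mutant replicate 2 gave a median of -0.0043, omitting wild-type replicate 2 gave -0.02, and omitting wild-type replicate 1 gave -0.15. It was -0.16 after quantile normalization and -0.16 with a common median. Both rescalings also lowered all tested probe sets. Their medians at numbers 1 to 3 became -0.01, -0.02 and -0.0085 after quantile normalization, and -0.04, -0.09 and -0.07 with a common median. Markers of neural tube, which carries much of the Hox transcript in an embryo of this age, were also lower at number 2: 5 of 16 were higher in the mutant, with a median of -0.24, against -0.06 and 0.12 at numbers 1 and 3. Their summed signal was 16945 to 20214 in siblings and 17785 to 19664 in mutants, and none was at background in both genotypes. Of the other lists described below, that of Cdx and even-skipped genes had a number 2 median of -0.60, and the rest lay above 0. Among the rest, genes listed for hindbrain segmentation, somite genes and lateral plate genes had number 2 medians of 0.13, 0.20 and 0.12. The part of neural tube amount in the Hox values was not tested.

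**Figure D4:**
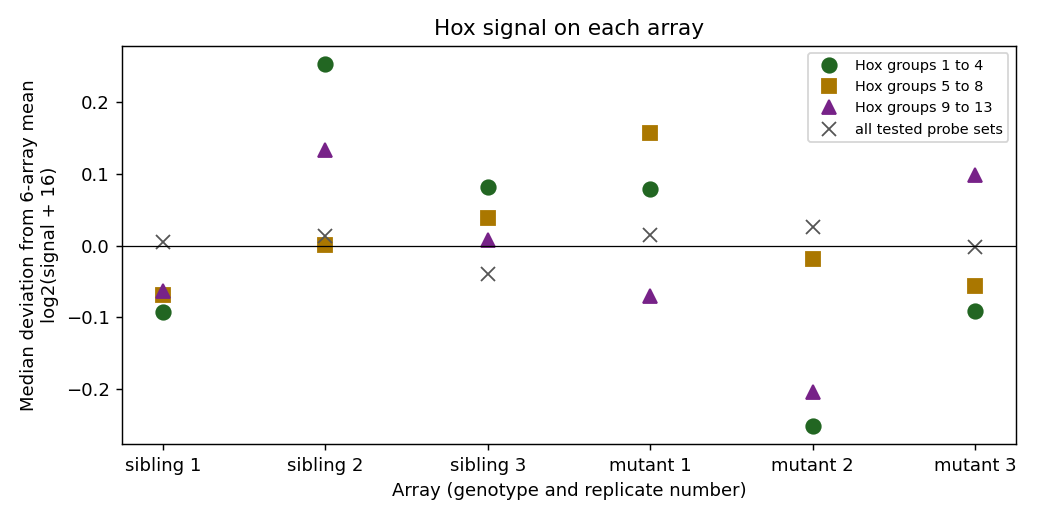
Median deviation of Hox genes from their mean over the 6 arrays on the log2(signal + 16) scale, for groups 1 to 4, 5 to 8 and 9 to 13 and for all tested probe sets, on each array. Groups 1 to 4 stand at 0.25 in sibling 2 and -0.25 in mutant 2, whereas all tested probe sets stay between -0.04 and 0.03.

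Of the 53 tested Hox probe sets, 8 were higher in the mutant at all 3 replicate numbers (15.1%, against 16.2% of all tested) and 10 lower (18.9%, against 14.7%). Every mutant array lay outside the sibling range, on 1 side, for 2 Hox probe sets with higher mutant signal (3.77%, against 3.71% of all) and 4 with lower (7.55%, against 3.04%). The higher 2 were those of hoxb10a above and a dim probe set of hoxc8a, which read 48.3, 29.3 and 45.2 in siblings, all at background, and 63.6, 61.6 and 49.2 in mutants, only mutant 1 above background. The lower 4 were those of hoxb2a, hoxd4a and hoxc11a above and a dim probe set of hoxb8a, at 86.1, 118 and 82.1 in siblings and 71.1, 56.0 and 70.0 in mutants. That probe set differed by -0.44 ± 0.21 (SE), was at or below background on 3 of 6 arrays, and stood beside 2 brighter hoxb8a probe sets that differed by 0.03 and -0.12. A further hoxb10a probe set, left out by the filter on low values, was higher in every mutant array but at background on all 6. It read 37.8, 40.9 and 33.7 in siblings and 43.1, 42.4 and 56.0 in mutants.

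Of 13 genes with several probe sets, 9 had probe sets of opposite sign. In hoxa10b, hoxc8a, hoxc11a and hoxd3a the opposite sign came only from a probe set at background on all 6 arrays. Between probe sets above background on all 6 arrays, the largest gap was in hoxa3a, at -0.05 ± 0.21 and 0.43 ± 0.26 (SE). The second of these read 205, 139 and 124 in siblings and 182, 300 and 172 in mutants, highest in mutant 2, where the brighter one read 261, and it differed by 0.19 without that array. Both probe sets of hoxb2a, of hoxd4a and of hoxb9a, and all 3 of hoxb10a, agreed in sign. The identifiers of 16 of the 59 probe sets carry the letter A and those of 43 the letter S, and no source here gives the strand that each reads. Cross-hybridisation between paralogues was not tested. In the RefSeq table the spans of hoxa3a, hoxb3a, hoxc3a and hoxd3a overlap those of other members, so probe sets there may read more than 1 gene's transcripts.

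**Figure D5:**
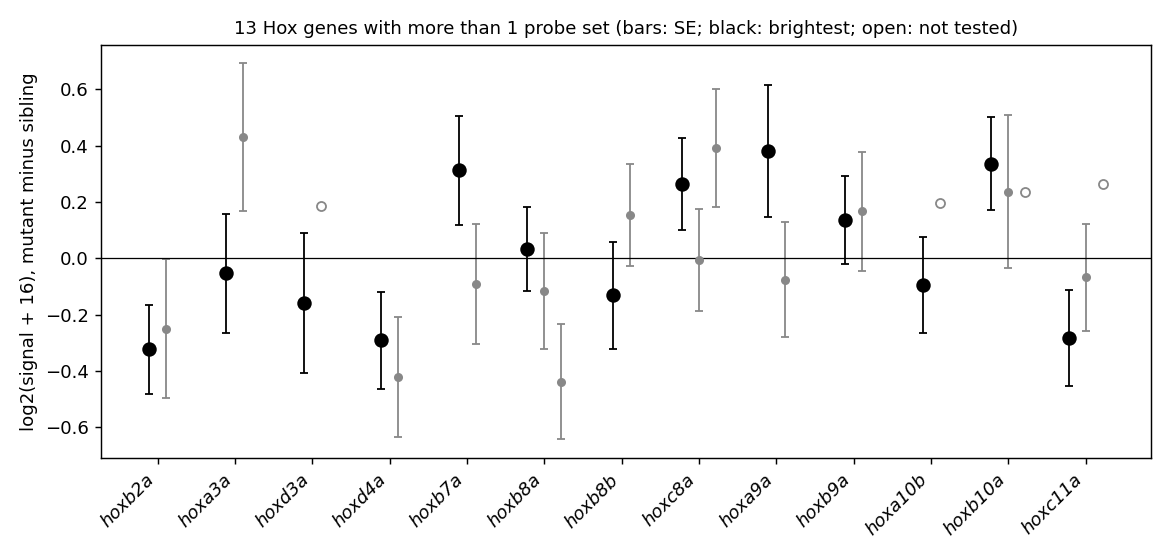
Difference (mutant minus sibling, log2(signal + 16) scale) of every probe set of the 13 Hox genes that have more than 1, with standard errors; black points are the brightest probe set of a gene, and open points were not tested. In 9 of the 13 genes the probe sets lie on both sides of 0, as for hoxa3a at -0.05 and 0.43. For hoxa10b, hoxc8a, hoxc11a and hoxd3a, 1 side rests only on a probe set at background in both genotypes.

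Genes that act with or upstream of Hox genes were read from the same fit. Of 12 tested cofactor genes of the Pbx, Meis and Pknox families, 8 had a higher and 4 a lower mutant mean (median 0.10), and 0 passed. The signal of pbx4, the main early Pbx partner of Hox proteins in the zebrafish hindbrain, was 622, 590 and 461 in siblings and 982, 728 and 611 in mutants. Mutant 3 overlapped the siblings, and the difference was 0.45 ± 0.20 (SE; limma, adjusted p = 0.942, and 0.640 with the block). Of 4 tested genes, cdx4 of the Cdx family and otherwise members of the even-skipped family beside the Hox clusters, 4 had a lower mutant mean (median -0.28). Of these 0 passed, and evx2 was above background on only 1 array of each genotype. The direction varied with the number: at numbers 1 to 3 the list medians were 0.07, -0.60 and -0.43. At those numbers 3, 1 and 0 of the 4 genes were higher in the mutant. The eve1 gene, next to hoxb13a at the 5' end of hoxba and active in the tail bud, read 167, 200 and 338 in siblings and 121, 89.2 and 211 in mutants. It was lower in the mutant at every number, by -0.42, -1.04 and -0.64, but overlapped, at -0.70 ± 0.33 (SE; limma, adjusted p = 0.942, and 0.640 with the block). The cdx4 signal, of a caudal gene that activates posterior Hox genes in zebrafish, was 1337 ± 108 in siblings and 1326 ± 193 in mutants (SD), a difference of -0.02 ± 0.15 (SE).

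Of 15 tested genes of retinoic acid synthesis, breakdown and reception, 9 had a higher and 6 a lower mutant mean (median 0.01). The lowest p was that of rdh10b, which makes the retinal precursor, at 328.5 ± 24.2 in siblings and 446.0 ± 76.7 in mutants (SD), without overlap; its adjusted p was 0.942 (limma). The retinaldehyde dehydrogenase aldh1a2 differed by -0.12 ± 0.16 (SE). Of 9 genes listed for hindbrain segmentation, otx2a and otx2b included, 3 had a higher and 6 a lower mutant mean (median -0.17, the value of otx2b). Among them hnf1bb, at background on all 3 sibling arrays and also a kidney gene, read 173, 247 and 62.6 in mutants, the last at background (limma, adjusted p = 0.942). Of 12 tested tail bud and posterior signalling genes, 6 were on each side of 0 (median -0.02), with tbxta, the brachyury gene of notochord and tail bud, at 0.43 ± 0.29 and bmp4 at -0.35 ± 0.24 (SE). The lowest p of that list was that of tbx16, at 0.79 ± 0.50 (SE; limma, adjusted p = 0.942). It read 342, 58.4 and 252 in siblings, sibling 2 at background, and 379, 366 and 230 in mutants. Of 16 tested Polycomb and trithorax genes, 12 had a higher and 4 a lower mutant mean (median 0.11). The histone demethylase kdm6ba, which removes a Polycomb mark, was at 286.9 ± 90.1 and 457.6 ± 70.0 (SD), and eed, a subunit of Polycomb complex, at 1326 ± 344 and 983.4 ± 101 (SD). Neither passed (limma, adjusted p = 0.942).

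Markers of the tissues that carry Hox transcripts were spread as follows. Of 16 neural tube genes, 7 had a higher mutant mean (median -0.04), with 0 past the threshold. Of 12 somite genes, 8 did (median 0.10), also with 0 past it, at summed signals of 2465 to 2612 in siblings and 2422 to 3162 in mutants. Of 9 tested lateral plate and fin field genes, 6 did (median 0.19), and hand2 alone passed. In that list nkx2.5, gata4, tbx20 and wnt2ba were at background in both genotypes, and tbx5a, a defining fin field gene, was above it on 1 sibling array. For the lateral plate list, omitting wild-type replicate 3 gave -0.0092, mutant replicate 1 gave 0.10, mutant replicate 2 gave 0.08 and mutant replicate 3 gave 0.41. The part of these tissues in the Hox values was not tested.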

How the data were processed

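Per the submitters' processing notes, the deposited values are hybridisation intensities made by the authors with MAS5, 1 per probe set and array. Their means after trimming 2% at each end were between 500.107 and 500.133, so arrays share a scale. No genome build is given in the sources used here.

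Here 115 control probe sets and the lowest 25% by mean log2(signal + 16), below a signal of about 46.1, were left out, which kept 11626 probe sets. Of 59 Hox probe sets 53 were kept, and of 42 genes 40. The genotype difference was tested two-sided in R 4.3.3 by limma 3.58.1, using lmFit and eBayes (trend on intensity), with p-values adjusted by Benjamini-Hochberg over all 11626. The procedure was also run on simulated data. Those data held differences far larger than any Hox difference here, and no deviations shared by an array. That run therefore cannot tell whether differences of the Hox size would be found. Group medians cover all 42 genes and have no test, nor do counts by direction. Array number, 3 a genotype, limits the precision.

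Deviations from the genotype means correlated within replicate numbers at 0.193, 0.118 and 0.482 over all tested probe sets. Each exceeds 0.1, and arrays of 1 number were set against each other in the differences by number and in the replicate block. The main fit, which gave the other standard errors, intervals and p-values, held no block and was unpaired. Wild-type 1 correlated at 0.203 with mutant 2, above the values of 0.193 and 0.118 within numbers, and the labels tie no number to a cross.

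Every gene is named. Array values are given for members without overlap, for the 6 with the largest difference (by gene and by probe set) and for the brightest of each paralogue group. Up to 3 genes per pathway list are named. Members, lists and rules were chosen with earlier results of these data known. Alternatives were the offset, filter, scaling, array weights, replicate block, probe set rule and leaving out each array.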

Additional observations from a re-analysis of the deposited data

How the results depend on the processing

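The count of Hox probe sets past an adjusted p of 0.05 was 0 under every alternative run, including the replicate block, quantile normalization and each array left out. The replicate block changed no call. It cannot change the differences or their medians, because both genotypes have an array at every number. The filter cannot change the Hox medians either, because these cover all Hox genes. Over Hox genes the median lay between -0.16 and -0.0043. Moves were set against the SD between replicate numbers, which exceeded the size of each Hox median except that of hoxcb, so few could pass it. By that measure only the median of hoxcb (SD 0.13), which rests on 3 genes, moved. It went to 0.012 without mutant replicate 2 and -0.37 without mutant replicate 3. The hoxaa median (SD 0.35) went from -0.05 to 0.12 without wild-type replicate 2 and was not counted as moved. With single arrays left out, list medians lay between 0.05 and 0.15 for cofactors, -0.02 and 0.14 for retinoic acid, -0.20 and -0.08 for hindbrain, 0.05 and 0.19 for chromatin and 0.08 and 0.16 for somite genes. The neural tube list's median of -0.04 was 0.05, 0.0094 and 0.01 without wild-type replicates 1 and 2 and mutant replicate 2. The tail bud list's median of -0.02 was 0.03 to 0.06 without wild-type replicates 2 or 3 or mutant replicates 1 or 3.

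On the brightest probe set, the difference took the other sign under some alternative in 16 genes. These differences reached -0.17, for hoxc12b, where the median size over Hox genes was 0.16. That count leaves out the probe set rule. Outside the 16, hoxa10b had a dimmer probe set of opposite sign at 0.20, at background, and hoxb8b had another at 0.15. Among the 16 was hoxa5a, whose fitted values are no exact sizes because its sibling arrays are at background. With single arrays left out, the range was -0.22 to 0.14 for hoxa3a, -0.14 to 0.11 for hoxa4a, -0.19 to 0.26 for hoxa5a, -0.35 to 0.10 for hoxa11a, -0.0023 to 0.31 for hoxa9b and -0.086 to 0.075 for hoxa11b. It was -0.056 to 0.33 for hoxb1a, -0.24 to 0.17 for hoxb4a, -0.057 to 0.079 for hoxb8a, -0.13 to 0.23 for hoxc3a and -0.24 to 0.038 for hoxc4a. It was -0.21 to 0.20 for hoxc6a, -0.0016 to 0.18 for hoxc9a, -0.15 to 0.15 for hoxc6b, -0.37 to 0.059 for hoxc12b and -0.36 to 0.0030 for hoxd3a. With quantile normalization hoxa11b was at -0.073, hoxb8a at -0.0068, hoxc3a at -0.0018, hoxc9a at -0.0059 and hoxc6b at -0.055. With a common median hoxa5a was at -0.014, hoxa11b at -0.068, hoxb8a at -0.054, hoxc3a at -0.0032, hoxc9a at -0.016 and hoxc6b at -0.071. With array weights hoxa11b was at -0.0091, hoxb4a at 0.12, hoxb8a at -0.0025 and hoxc6a at 0.12. The cause of these turns was not tested. Leaving out the genes at background in both genotypes, an alternative chosen after the data were seen, gave a median of -0.05.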
